A study of Mus musculus with 79 samples.

Results

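The genes described here are 10 immediate early and dissociation stress genes, chosen by symbol from 23361 genes in the deposited tables: Fos, Fosb, Junb, Jund, Egr1, Atf3, Ier2, Ier3, Dusp1 and Hspa1a. All 10 have a row in each of the 3 tables, which hold macrophages (MAC), Schwann cells (SC) and the distal stump (DS). The 79 libraries came from 32 mice carrying S100β-eGFP, a GFP transgene driven by the human S100B promoter, after the common peroneal nerve was cross-sutured to the tibial stump through a silicone conduit. Repair was either immediate or delayed by 8 weeks, during which the tibial stump stayed denervated. At day 5 there were 8 MAC, 7 SC and 7 DS libraries after immediate repair and 9 of each after delayed repair. At day 14 there were 8 MAC and 8 SC libraries after immediate repair and 7 of each after delayed repair, with no stump. Each bridge was 1 mouse and was not pooled. Every group held 4 males, replicates 1 to 4, and 3 to 5 females, replicates 5 and up, so sex and replicate number cannot be told apart.

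The sorted cells and the stump reached the sequencer by different routes. Bridges were cut up and digested with collagenase and hyaluronidase in the warm, stained in the cold and sorted into macrophages (positive for F4/80, CD14, CD16/32 and CD11b) and SC (positive for GFP and negative for the other markers), and their cDNA was amplified from small cell numbers. The stump was lysed whole, and its libraries were made by depleting ribosomal RNA. A difference between a sorted fraction and the stump therefore cannot be told apart from a difference in cells, tissue site, dissociation or library kit. In bulk samples, fewer cells of a type and less RNA per cell cannot be told apart either.

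Immediate early genes are transcribed within minutes of a stimulus, without new protein synthesis, through transcription factors already present in the cell. ERK and other MAP kinases activate the SRF partner proteins that bind CArG boxes, and PKA and related kinases activate CREB, which binds the cyclic AMP response element (CRE). Fos, FosB, JunB and JunD are subunits of the AP-1 dimer, Egr1 is a zinc finger activator and Atf3 is a CREB family factor that marks axotomised neurons and injured SC. Ier2 is a nuclear protein, Ier3 a regulator of survival and ERK signalling, Dusp1 a nuclear phosphatase that switches off p38 and JNK, and Hspa1a the stress-inducible HSP70 chaperone under heat shock factor 1. Enzymatic dissociation at warm temperature is known to induce many of these genes in tissue macrophages and other cells, which is why they are often read as a dissociation signature.

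RefSeq promoters of the GRCm38.p6 build were matched for 8 of the 10 genes, all but Egr1 and Ier2. In the 250 bases before the RefSeq start, the CRE core TGACG was found on either strand in 5 of the 8 (Fos, Fosb, Junb, Atf3 and Dusp1) and in 17.8% of 32851 promoters of that length. The full palindrome TGACGTCA occurred in Dusp1 and in 1.55% of promoters, and the heat shock motif GAANNTTC in Hspa1a and in 6.69%. The AP-1 motif TGANTCA (6.75% of promoters) and the CArG box (1.47%) had no match in these windows, and TATAAA (12.4%) was found in Fos. A match is only an occurrence of these letters. The promoters shown are those of Fos and Fosb, whose levels overlapped between stump and sorted cells, of Atf3 and Dusp1, which also hold a CRE core and had no overlap between stump and MAC, and of Hspa1a as the heat shock case. Each runs 5′ to 3′ on the gene's strand, with the CRE core or the heat shock motif in capitals.
Fos, chr12:85473640-85473889, plus strand: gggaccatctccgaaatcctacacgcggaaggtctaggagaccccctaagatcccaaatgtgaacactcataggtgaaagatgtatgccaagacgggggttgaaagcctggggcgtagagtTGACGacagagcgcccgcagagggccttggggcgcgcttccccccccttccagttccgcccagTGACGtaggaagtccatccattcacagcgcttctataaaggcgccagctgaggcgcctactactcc
Fosb, chr7:19310046-19310295, minus strand: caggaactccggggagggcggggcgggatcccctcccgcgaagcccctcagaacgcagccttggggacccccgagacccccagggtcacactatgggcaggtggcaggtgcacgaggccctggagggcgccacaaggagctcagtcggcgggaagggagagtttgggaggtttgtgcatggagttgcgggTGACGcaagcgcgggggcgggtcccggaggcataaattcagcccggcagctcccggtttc
Atf3, chr1:191183334-191183583, minus strand: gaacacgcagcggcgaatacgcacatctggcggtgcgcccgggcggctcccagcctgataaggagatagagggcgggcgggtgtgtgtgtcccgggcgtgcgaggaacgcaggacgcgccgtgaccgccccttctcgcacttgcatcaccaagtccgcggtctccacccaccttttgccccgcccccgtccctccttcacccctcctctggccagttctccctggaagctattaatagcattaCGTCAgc
Dusp1, chr17:26508520-26508722, minus strand: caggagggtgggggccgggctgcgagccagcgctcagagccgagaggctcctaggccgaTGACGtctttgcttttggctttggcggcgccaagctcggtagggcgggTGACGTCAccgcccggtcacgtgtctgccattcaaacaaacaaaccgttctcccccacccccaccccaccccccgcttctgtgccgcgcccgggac
Hspa1a, chr17:34972157-34972406, minus strand: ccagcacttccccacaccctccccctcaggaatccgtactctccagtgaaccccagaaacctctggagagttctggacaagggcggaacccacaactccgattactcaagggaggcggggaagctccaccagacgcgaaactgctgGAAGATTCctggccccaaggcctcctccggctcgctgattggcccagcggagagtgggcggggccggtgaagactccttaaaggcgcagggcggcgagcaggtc

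The CRE core nearest to the start began 7 bases before it in Atf3, within bases that are exonic in GENCODE M21, 60 in Fosb, 66 in Fos, 106 in Junb and 140 in Dusp1, where it forms 1 arm of the full palindrome. The last 7 bases of the Atf3 window and the last 6 of the Fosb window are exonic there. The last 47 of the Dusp1 window are too and were left out, so 203 bases are shown. The Atf3 and Dusp1 windows lie within the GENCODE gene spans, because longer transcripts of both genes start upstream. The Jund window that was searched, chr8:70697489-70697738, does not adjoin the GENCODE gene and ends before its start at 70698949. In the GRCm38 annotation the genes themselves span chr12:85473890-85477273 (Fos), chr7:19302696-19310051 (Fosb), chr8:84974484-84978718 (Junb), chr8:70698949-70700616 (Jund), chr18:34859823-34864984 (Egr1), chr1:191170296-191218039 (Atf3), chr8:84661331-84662852 (Ier2), chr17:35821684-35822923 (Ier3), chr17:26505590-26562128 (Dusp1) and chr17:34969190-34972156 (Hspa1a). Hspa1b, at chr17:34956436-34959238, is a near-identical copy of Hspa1a whose 250-base promoter differs from that of Hspa1a at 3 positions. Reads of both genes may be shared between them by the counting, so Hspa1a values are uncertain and Hspa1b is given beside them.

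Library totals were 14928745 to 28499407 estimated counts in MAC, 11614940 to 30796823 in SC and 3898778 to 9212709 in DS. Values below are CPM, the counts of a gene scaled to a library total of 1000000, unless another scale is named. The MAC libraries carried the macrophage markers at a summed 19092 to 30780 CPM at day 5, and Cdh19, Foxd3 and Gfra3, defining genes of SC, were at 0 in all of them (at day 14 Ngfr was). The SC libraries carried Schwann cell transcripts, with 10 of the 11 Schwann cell markers tested higher in SC than in MAC at day 5, 1 lower and none at 0 in all SC libraries. Their level was low, at a summed 220 to 1525 CPM (median 465), with S100b at a median of 3.65 CPM and at 0 in the lowest library. The sum in MAC, 422 to 951 CPM, came almost wholly from the gene that was lower in SC, and only 2 of the 12 markers passed the filter on low counts in MAC. In the whole stump the sum of the Schwann cell markers was 173 to 3524.5 CPM (median 800). Of 11 measured, 0 lay wholly above the stump in SC and 0 wholly below. Their median log2 ratio of SC to stump, with 1 CPM added to each median, was −1.58, against −0.90 over all genes. The SC libraries also went against their label. Their dendritic cell markers summed to 26079 to 49582 CPM, against 1108 to 5212 CPM in MAC and 547 to 1685 CPM in DS, and Ccr7, a chemokine receptor of migrating dendritic cells, had a median of 7184 CPM in SC and 20.3 CPM in MAC. SC below therefore means the GFP-positive sorted fraction. The part that its dendritic cell transcripts play in the values below was not tested.

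The 10 genes took up about an order of magnitude more of the sorted libraries than of the stump at day 5. Their summed share of the library had a median of 0.0733% in DS (0.0443 to 0.123%, n = 16), 0.644% in MAC (0.525 to 0.879%, n = 17) and 0.779% in SC (0.580 to 1.17%, n = 16). At day 14 it was 0.541% in MAC (0.426 to 0.733%, n = 15) and 0.573% in SC (0.399 to 0.894%, n = 15). The ranges of stump and sorted libraries did not overlap, and the difference was very unequal across the genes.

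Fos and Fosb, the 2 Fos family subunits, were already present in the undissociated stump at levels that overlapped those of the sorted cells. Fos ran from 53.6 to 295 CPM in DS with a median of 121, from 75.3 to 457 in MAC with a median of 214, and from 91.1 to 576 in SC with a median of 272. Its median was 1.77 times that of the stump in MAC and 2.25 times in SC, and it was higher in MAC than in the stump of the same mouse in 9 of 16 mice and higher in SC in 12 of 15. With joint TMM scaling of the tables these ratios were 3.04 and 3.67, with 16 of 16 and 14 of 15 mice higher. Fosb had medians of 13.0 CPM in DS (3.50 to 64.1), 13.3 CPM in MAC (1.47 to 45.6) and 15.6 CPM in SC (2.18 to 34.9). The 3 ranges of Fosb overlapped over most of their length, and MAC exceeded the stump of the same mouse in 7 of 16. Joint TMM scaling moved the Fosb ratio from 1.02 to 1.86 in MAC, with 9 of 16 mice higher, and from 1.20 to 1.86 in SC, with 7 of 15 higher.

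The Jun family subunits behaved otherwise. Junb, which partners Fos proteins early after stimulation, ran from 86.6 to 228 CPM in DS (median 124), from 929.6 to 2163 in MAC (median 1509) and from 1709 to 3148 in SC (median 2396). Every sorted library exceeded every stump library, with medians 12.2 times that of the stump in MAC and 19.4 times in SC. Jund, the subunit that resting cells keep most steadily, had medians of 106 CPM in DS (71.0 to 119.5), 359 CPM in MAC (250.2 to 575) and 238 CPM in SC (163 to 484), again with no overlap and with smaller ratios of 3.39 in MAC and 2.25 in SC. Joint TMM scaling raised the ratios of Junb to 22.2 in MAC and 29.8 in SC and those of Jund to 6.26 and 3.68, also without overlap.

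Egr1 and Atf3, the other DNA-binding factors, had higher medians in MAC than in SC, with overlapping ranges. Egr1 had a median of 57.7 CPM in DS (24.5 to 136), 266 CPM in MAC (64.7 to 987) and 61.6 CPM in SC (4.34 to 359.9). It was thus 4.61 times the stump median in MAC and 1.07 times in SC, where 7 of 15 mice had a higher value in SC than in the stump. Joint TMM scaling gave 8.97, with every MAC library above the stump, and 1.64, with 10 of 15 mice higher, and by repair group the MAC ratio was 3.26 after immediate and 6.30 after delayed repair. Atf3 had a median of 113 CPM in DS (38.9 to 333), 912 CPM in MAC (459 to 1092) and 411 CPM in SC (97.1 to 817). All MAC libraries lay above all stump libraries, and 14 of 15 mice had more in SC than in the stump. The stump values fall into 2 bands by repair group, described below, so that the MAC ratio was 3.70 after immediate and 14.2 after delayed repair, and the SC ratio 1.58 with overlap and 7.03 without. Joint TMM scaling gave 16.7 in MAC and 5.34 in SC over both repair groups.

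The remaining 4 genes included the widest separations. Hspa1a was at 2.13 to 7.69 CPM in DS (median 3.74, 11 or more counts in every library), 274 to 1033 CPM in MAC (median 488) and 841 to 5557 CPM in SC (median 2451). These medians stood at 130.5 times the stump in MAC and 655 times in SC, and Hspa1b followed with medians of 5.83, 541 and 2348 CPM. Ier3 ran from 25.3 to 52.2 CPM in DS (median 36.6), 828 to 1889 in MAC (median 1363) and 219 to 963 in SC (median 364). Dusp1, a phosphatase, was at a median of 58.3 CPM in DS (32.5 to 127), 1118 CPM in MAC (925 to 1546) and 1368 CPM in SC (1029 to 1882). Hspa1a, Ier3 and Dusp1 had no overlap between stump and either fraction. Ier2 had medians of 23.1 CPM in DS (17.4 to 54.5), 75.4 CPM in MAC (36.5 to 111) and 116 CPM in SC (49.1 to 166), which overlapped the stump at the ends of the ranges. With joint TMM scaling the ratios in MAC and SC became 255 and 972 for Hspa1a, 69.8 and 16.1 for Ier3 (37.3 and 9.96 before), 39.3 and 37.4 for Dusp1 (19.2 and 23.5 before) and 6.05 and 8.67 for Ier2 (3.26 and 5.01 before), the last then without overlap.

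**Figure D1:**
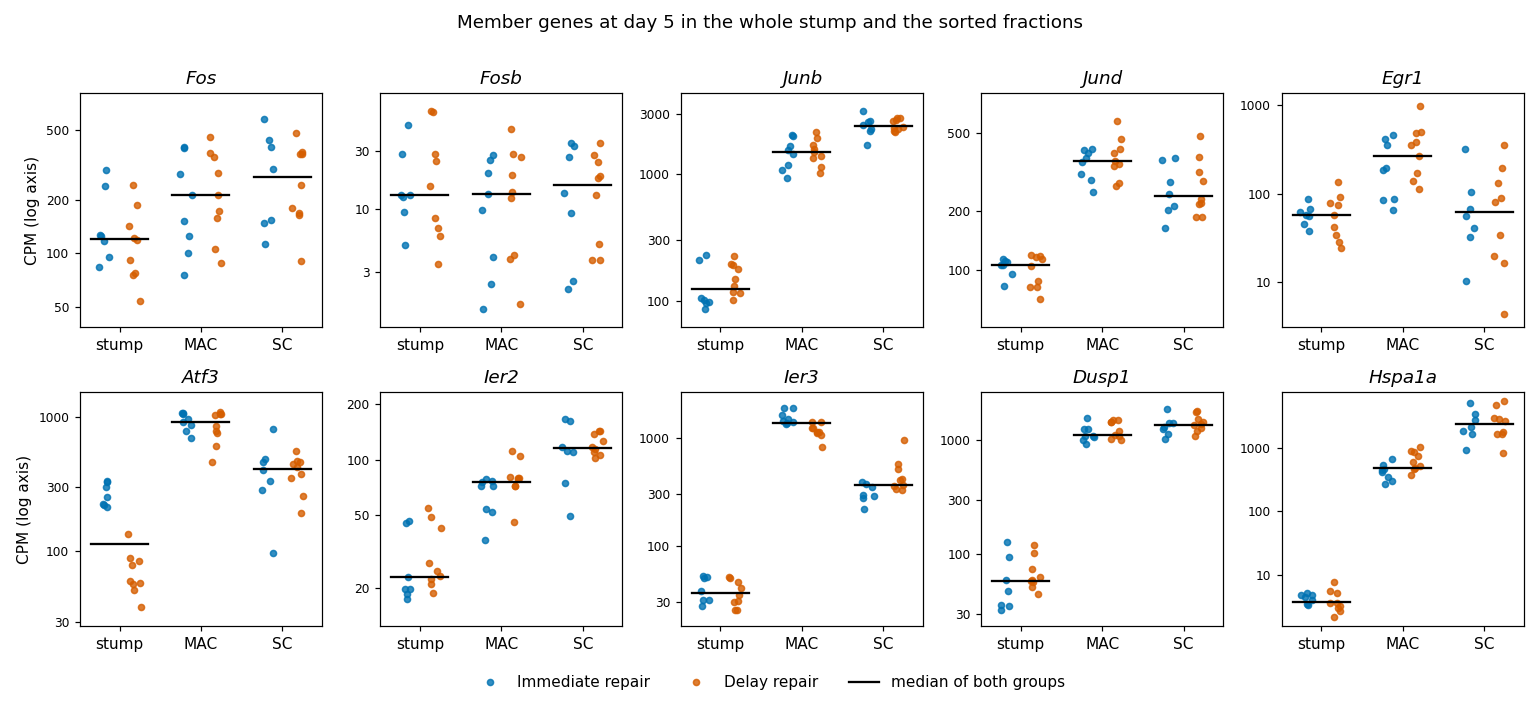
CPM on a log axis for each of the 10 genes at day 5 in stump, MAC and SC, with 1 point per library, immediate and delayed repair in separate colours and a black bar at the median of both. Hspa1a, Ier3, Dusp1 and Junb in the sorted fractions sit wholly above the stump, Fos and Fosb overlap it, and Atf3 in the stump falls into 2 bands by repair group.

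In all, 6 of the 10 genes were higher in every MAC library than in every stump library (Junb, Jund, Atf3, Ier3, Dusp1 and Hspa1a), where 11.5% of 12395 genes measured in these libraries were. In SC 5 of 10 were (Junb, Jund, Ier3, Dusp1 and Hspa1a), against 10.6% of 12659 genes. With 1 CPM added to each median, so that genes near 0 have a value, the median log2 ratio of sorted to stump was 2.60 in MAC and 2.07 in SC over the 10 genes, and −1.22 and −0.90 over all genes measured. None of the 10 was lower in every sorted library than in every stump library, where 50.1% of all genes were in MAC and 28.5% in SC. After joint TMM scaling of the tables, 8 of 10 lay above the stump in MAC, where 23.6% of all genes did, and 6 of 10 in SC, where 17.0% did. No test was run on the stump contrast, because the tables come from different library kits.

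**Figure D2:**
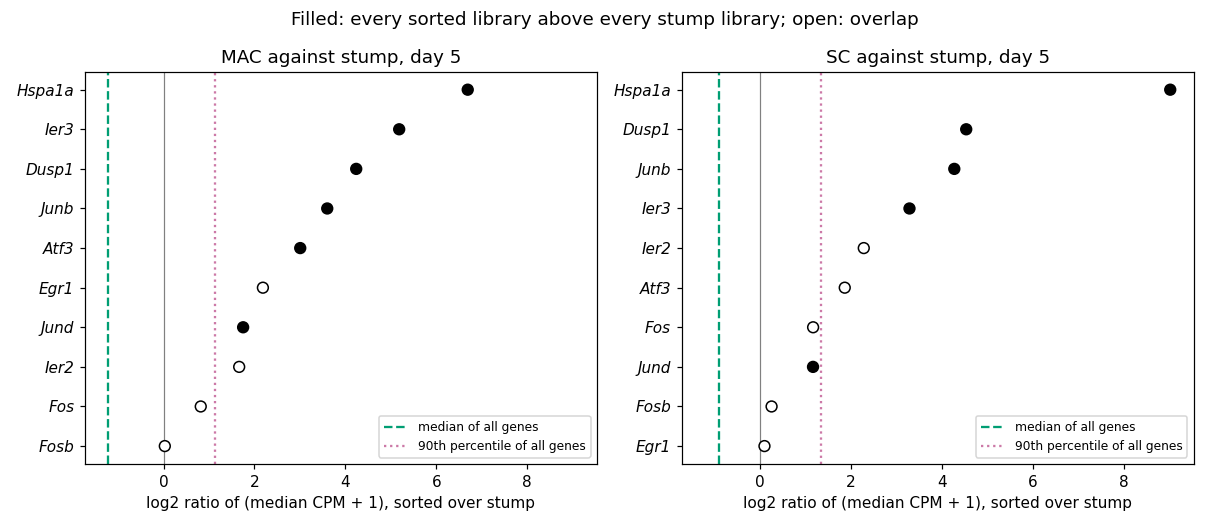
Log2 ratio of the median CPM in a sorted fraction to that in the stump at day 5, with 1 CPM added to both, for MAC on the left and SC on the right. Hspa1a is at 6.69 and 9.01 and Fosb at 0.03 and 0.25, filled points have no overlap with the stump, and the lines mark the median and the 90th percentile of all genes.

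Relatives of these genes were spread in the same comparison. Of all genes measured, 11.5% lay wholly above the stump in MAC and 10.6% in SC, and 50.1% and 28.5% wholly below. The median log2 ratios over all genes were −1.22 and −0.90. Of the other AP-1 and ATF genes measured, 8 of 11 lay wholly above the stump in MAC (median log2 ratio 2.49, with 1 CPM added as above) and 5 of 12 in SC (1.78), and 1 lay wholly below in each. Of other immediate early genes, 17 of 24 were above in MAC (2.48) and 16 of 25 in SC (3.06), with 2 and 1 below. Heat shock and chaperone genes were above in 7 of 17 in MAC (0.55) and in 10 of 17 in SC (1.89), with 3 and 0 below. MAP kinase phosphatases and feedback inhibitors were above in 2 of 12 in each fraction and below in 6 in MAC and 3 in SC, with medians of −1.97 and −0.07. The kinases and factors upstream of these genes were above in 2 of 15 and below in 8 in MAC (−1.32), and above in 3 and below in 5 in SC (0.10). For the phosphatases and the upstream genes, the counts below the stump lie near the shares over all genes.

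Between genes, levels were compared per kilobase of exon (RPKM). In the stump Junb (median 68.3 RPKM), Jund (63.6), Fos (57.3) and Atf3 (52.3) led with overlapping ranges, and Fosb (3.44) and Hspa1a (1.26) came last, also overlapping. In MAC at day 5 the order opened with Ier3 (1205 RPKM, 732 to 1670.5) and Junb (834 RPKM, 514 to 1196), whose ranges overlapped, and Fosb closed it at 3.51 RPKM, below the lowest Ier2 value of 24.0 RPKM. In SC at day 5 Junb led at 1324.5 RPKM, followed by Hspa1a at 826 RPKM with an overlapping range, while Hspa1a had been last in the stump. At day 14 the first 3 places were the same genes in the same order in each fraction: Ier3, Junb and Dusp1 in MAC, and Junb, Hspa1a and Dusp1 in SC. At day 5 all other neighbours in these orders overlapped in range.

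Because both fractions came from the same bridges, SC and MAC were compared within mice. At day 5, 7 of 10 genes passed edgeR's quasi-likelihood test, a share to be read against 64.5% of 10074 genes tested. SC exceeded MAC in Hspa1a by a log2 difference of 1.92 (SE 0.23, adjusted p = 8.1e-07), in Junb by 0.49 (SE 0.13, adjusted p = 0.0022) and in Ier2 by 0.45 (SE 0.10, adjusted p = 7.8e-04). MAC exceeded SC in Egr1 (log2 difference −2.31, SE 0.30, adjusted p = 1.7e-06), Ier3 (−2.02, SE 0.17, adjusted p = 6.4e-09), Atf3 (−1.49, SE 0.19, adjusted p = 2.2e-06) and Jund (−0.71, SE 0.07, adjusted p = 7.7e-08). The fractions were not told apart in Fos (log2 difference 0.07, 95% interval −0.35 to 0.50), Fosb (0.09, −0.39 to 0.57) or Dusp1 (−0.05, −0.32 to 0.22). The intervals leave room for differences of the size seen in Ier2 and Junb for the Fos genes.

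At day 14, 9 of 10 genes passed, against 63.3% of 10596 genes tested. Hspa1a differed by 0.58 on the log2 scale (SE 0.15, adjusted p = 0.0023), with MAC at 254 to 1085 CPM (median 686) and SC at 355 to 2203 CPM (median 1306). Ier2 (log2 difference 0.66, SE 0.11, adjusted p = 4.8e-05), Junb (0.28, SE 0.08, adjusted p = 0.0052) and Fos (0.37, SE 0.15, adjusted p = 0.040) were higher in SC. Ier3 (−2.04, SE 0.13, adjusted p = 1.9e-10), Atf3 (−1.17, SE 0.19, adjusted p = 2.3e-05), Egr1 (−1.02, SE 0.32, adjusted p = 0.0099), Jund (−0.64, SE 0.09, adjusted p = 3.6e-06) and Dusp1 (−0.41, SE 0.10, adjusted p = 0.0022) were higher in MAC. Scaling by library size moved the median of all genes by 0.40 at day 14 and 0.20 at day 5, and ended the day 14 calls of Egr1 (−0.65, adjusted p = 0.099) and Dusp1 (−0.05, adjusted p = 0.66). Fos was also lost without the filter on low counts (0.34, adjusted p = 0.077), and Fos (0.44, adjusted p = 0.15) and Egr1 (−0.69, adjusted p = 0.11) without the pairing of fractions by mouse.

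Around these genes at day 5, heat shock and chaperone genes were higher in SC for 12 of 16 tested and lower for 1. Those with the lowest p were Hsf2 (a heat shock factor, 3.59), Hspe1 (the mitochondrial co-chaperonin, 1.77) and Hsph1 (an HSP110 chaperone, 1.26) on the log2 scale. Other immediate early genes went both ways, 10 higher and 9 lower of 25, among them Nr4a3 (5.19), Arc (2.68) and Socs3 (−1.80). MAP kinase phosphatases and feedback inhibitors were higher for 5 of 9 and lower for 2, with Dusp5 at 1.72, Dusp16 at 2.44 and Dusp2 at 1.50. Other AP-1 and ATF genes were higher for 4 of 12 and lower for 6, and upstream regulators higher for 6 of 15 and lower for 3. Of all genes tested 32.7% were higher and 31.9% lower, so the counts of the other immediate early, AP-1 and upstream genes lie near those shares. The same contrast held 10 of 11 Schwann cell markers higher and 1 lower in SC, with 11 of 12 dendritic cell markers higher and 11 of 11 macrophage markers lower.

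The central contrast of the study was delayed against immediate repair. Of the 10 genes, Atf3 in the distal stump was the single call by edgeR's quasi-likelihood test. In the stump of the 9 mice with delayed repair Atf3 was at 52.0, 78.7, 57.1, 57.8, 59.8, 89.5, 135.8, 84.3 and 38.9 CPM. In the 7 mice with immediate repair it was at 221, 327, 254, 226, 333, 299.8 and 213 CPM. The lowest immediate value exceeded the highest delayed value, and the medians were 59.8 and 254 CPM. The log2 fold change, delayed over immediate, was −1.86 (SE 0.20, 95% interval −2.29 to −1.44, adjusted p = 8.1e-06), in a contrast that called 26.3% of 12229 genes tested (30.1% by DESeq2). Males alone gave −2.05 (adjusted p = 6.5e-04, 10.6% of genes called) and females alone −1.79 (adjusted p = 0.021, 4.86% called), and leaving out any 1 mouse gave −2.02 to −1.78.

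**Figure D3:**
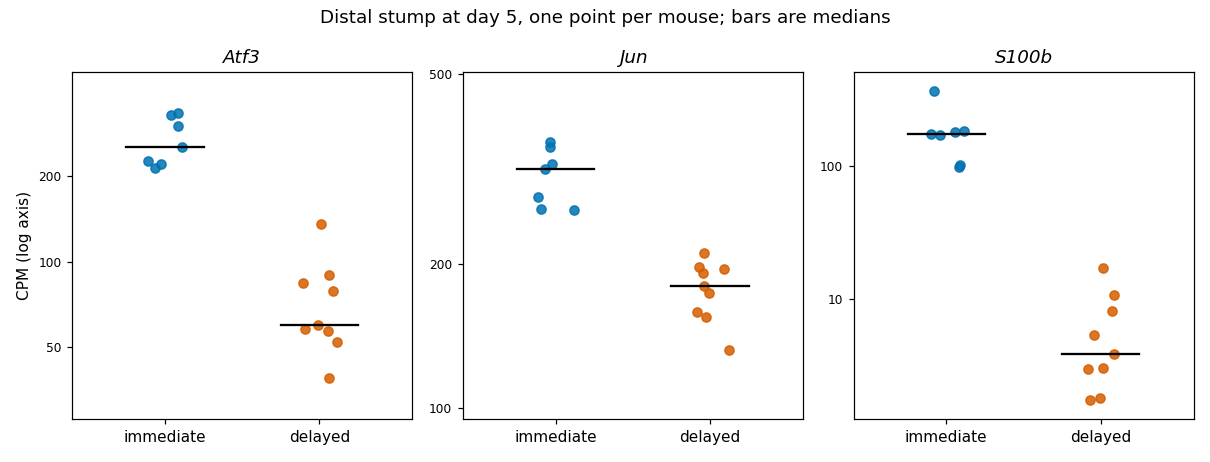
CPM on a log axis in the distal stump at day 5 for Atf3, its AP-1 partner Jun and the Schwann cell marker S100b, with 1 point per mouse and bars at the medians. All 3 are lower in each of the 9 delayed stumps than in any of the 7 immediate stumps, with S100b medians of 3.84 and 175 CPM.

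Schwann cell markers moved with Atf3 in these stumps. Of 11 tested, 10 were lower after delayed repair, with S100b at −4.86 and Mbp (myelin basic protein) at −2.06 on the log2 scale. Their sum ran from 173 to 945 CPM in delayed stumps and from 1529 to 3524.5 CPM in immediate stumps, and none was at 0 in a whole group. Sox10, a transcription factor that defines the Schwann cell lineage, had medians of 24.0 and 115 CPM. Endothelial markers rose in 7 of 8, T cell markers in 3 of 3, dendritic cell markers in 4 of 11 and macrophage markers in 2 of 11. All 11 dendritic cell markers and 10 of 11 macrophage markers had positive differences, with medians of 0.59 and 0.36 on the log2 scale. The part of these marker differences in the Atf3 result was not tested.

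The other 8 members tested in the stump gave log2 fold changes from −0.31 for Fos to 0.38 for Fosb, none past the threshold. Hspa1a was too low to be tested there, and Hspa1b gave 0.22 (adjusted p = 0.35). Among their relatives, Jun fell by 0.77 on the log2 scale (adjusted p = 3.9e-05), from 259.7 to 361 CPM in immediate to 132 to 211 CPM in delayed stumps, as the only other AP-1 or ATF gene of 10 to change. Of all genes tested 12.8% were higher and 13.5% lower after delayed repair, shares near those of the other immediate early genes given last. Heat shock and chaperone genes fell in 6 of 17 and rose in none, including Cryab (a small heat shock protein, −3.32), Bag3 (an HSP70 co-chaperone, −0.55) and Dnajb4 (−0.44). Of MAP kinase phosphatases and feedback inhibitors 2 rose and 3 fell of 12 (Dusp10 −2.0, Dusp4 −1.90, Spry2 −0.78), of upstream regulators 7 rose and 1 fell of 15 (Mapk3, which is ERK1, −0.85, Elk3 0.53, Creb1 0.28), and of other immediate early genes 3 rose and 2 fell of 23 (Nr4a2 −0.86, Tnfaip3 0.80, Btg1 0.48).

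In the sorted fractions edgeR's quasi-likelihood test called none of the 10 genes between repair groups. In MAC at day 5 it called 0.0357% of 8409 genes, and 435 had an unadjusted p under 0.05. The member nearest to a call there was Ier3, which ran from 828 to 1407 CPM after delayed and from 1327 to 1889 CPM after immediate repair, with overlapping ranges. Its log2 fold change was −0.50 (SE 0.12, adjusted p = 0.30 by edgeR, and −0.51 with adjusted p = 0.031 by DESeq2, which called 0.202% of genes). In SC at day 5 edgeR called 0.0% of 9604 genes, with 505 at an unadjusted p under 0.05, and DESeq2 0.146%. In MAC at day 14 these were 0.0% of 8589, 190 and 0.0%, and in SC at day 14 0.0% of 10226, 373 and 0.0293%, and DESeq2 called none of the 10 in these 3 contrasts either. Fold changes of the members lay from −0.50 to 0.60 in MAC at day 5, −0.20 to 0.56 in SC at day 5, −0.33 to 0.46 in MAC at day 14 and −0.27 to 0.46 in SC at day 14. Their 95% intervals reached from −1.39 to 1.97 over these 4 contrasts, and those of the most variable members, such as Fosb and Egr1, reached past 2-fold. The interaction of repair and day called none of the 10 in either fraction, in tests that called 0.0223% of 8949 genes in MAC and 0.0% of 10923 in SC (323 and 524 with an unadjusted p under 0.05, and 0.101% and 0.0824% called by DESeq2).

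Between day 5 and day 14 several members declined, and each that passed fell. In MAC after immediate repair, Ier3 went from a median of 1461 CPM (1327 to 1889) to 854 CPM (701 to 1503), Dusp1 from a median of 1083 CPM (925 to 1546) to 882 CPM (811 to 1104), and Atf3 from 938 CPM (694 to 1072) to 723 CPM (569 to 892). All 3 pairs of ranges overlapped. The log2 fold changes were −0.83 for Ier3 (SE 0.16, adjusted p = 0.0025), −0.49 for Dusp1 (SE 0.09, adjusted p = 0.0022) and −0.52 for Atf3 (SE 0.12, adjusted p = 0.0092), against 11.3% of 8507 genes called, 6.01% downwards. Scaling by library size shifted the median of all genes by 0.17 and left −0.65, −0.33 and −0.36 (adjusted p = 0.011, 0.037 and 0.032). With females only none of the 3 passed, with Ier3 at −0.73 (adjusted p = 0.17), Dusp1 at −0.52 (adjusted p = 0.14) and Atf3 at −0.30 (adjusted p = 0.46), and with males only all 3 did. After delayed repair no member passed in MAC (6.41% of 8529 genes called), with Ier3 at −0.38 (adjusted p = 0.094), Dusp1 at −0.37 (adjusted p = 0.14) and Atf3 at −0.29 (adjusted p = 0.47). As given above, these responses were not found to differ between repair groups.

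The fall extended to other immediate early genes in MAC. After immediate repair 10 of 23 fell and 1 rose, including Ptgs2 (cyclooxygenase 2, −2.40), Nfkbia (the NF-κB inhibitor, −0.90) and Tnfaip3 (A20, −0.89), and after delayed repair 7 of 23 fell and none rose, including Nfkbia (−0.67), Ier5 (−0.65) and Arc (−1.94), where 3.13% of all genes fell and 3.28% rose. Heat shock and chaperone genes rose in 5 of 14 after immediate repair (Hspd1 0.39, Hspe1 0.60, Bag3 0.44), the opposite direction, where 5.33% of all genes rose. Of other AP-1 and ATF genes 1 rose (Cebpd, 0.87) and 2 fell (Fosl1 −1.10, Jdp2 −0.97) of 11, of MAP kinase phosphatases and feedback inhibitors 1 of 7 fell (Dusp5, −0.85), and of upstream regulators 1 of 14 fell (Elk3, −0.73). In the same libraries 4 of 6 dendritic cell markers rose, with a sum of 1108 to 4232 CPM at day 5 and 8536 to 16220 CPM at day 14, and 3 of 11 macrophage markers fell and 1 rose. T cell markers rose in 2 of 2 tested (sum 3.68 to 11.3 CPM at day 5 and 29.9 to 84.0 CPM at day 14), neutrophil markers fell in 2 of 3, 1 of 2 endothelial markers fell and 1 of 5 fibroblast markers rose. After delayed repair 4 of 6 dendritic cell and 2 of 2 T cell markers rose, and 2 of 3 neutrophil, 1 of 2 endothelial and 1 of 11 macrophage markers fell. The part of these markers in the members' fall was not tested.

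In SC after delayed repair, Hspa1a went from a median of 2729 CPM (841 to 5557) at day 5 to 1094 CPM (355 to 2203) at day 14, Dusp1 from 1376 CPM (1094 to 1791) to 867 CPM (722 to 1483) and Junb from 2355 CPM (2153 to 2815) to 1923 CPM (1344 to 2429). The ranges overlapped for all 3. The fold changes were −1.49 for Hspa1a (SE 0.41, adjusted p = 0.038), −0.76 for Dusp1 (SE 0.21, adjusted p = 0.035) and −0.57 for Junb (SE 0.16, adjusted p = 0.041), where 8.09% of 9961 genes were called and 4.75% fell. Hspa1b gave −1.66 (adjusted p = 0.025). These calls rest on few libraries: without any 1 of 6 libraries (day 5 replicates 1, 3 and 4, and day 14 replicates 1, 2 and 7) none of the 3 passed, without day 5 replicate 7 or day 14 replicate 6 or 8 only 1 member did, and without another single library up to 4 members did. With replicate number as a block Hspa1a (adjusted p = 0.11) and Junb (adjusted p = 0.067) did not pass, and neither sex alone gave a call. After immediate repair the medians fell from 2173 to 1454 CPM for Hspa1a, 1311 to 902 CPM for Dusp1 and 2437 to 1848 CPM for Junb, and edgeR's adjusted p were 0.057, 0.081 and 0.081, with log2 fold changes of −1.26, −0.77 and −0.60 and 3.81% of 10016 genes called. DESeq2, which called 9.48% of genes, called those 3 (adjusted p = 0.0056, 0.015 and 0.012).

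Other immediate early genes fell in SC as well, 13 of 25 after delayed repair with 2 rising (Klf6 −1.10, Myc 2.13, Sgk1 1.08) and 9 of 25 after immediate repair with none rising (Nr4a3 −1.83, Tnfaip3 −1.40, Klf6 −1.17), where 4.75% and 3.1% of all genes fell and 3.34% and 0.719% rose. These shares depend on the scaling. By library size, 686 genes rose and 283 fell after delayed repair, against 333 and 473 with TMM. After immediate repair 150 rose and 200 fell, against 72 and 310. Of heat shock and chaperone genes after delayed repair 3 fell and 2 rose of 16, with Dnajb1, an HSP40 co-chaperone of HSP70, at −1.07 and Hspb1, a small heat shock protein, at 1.89. Schwann cell markers rose in 5 of 12 after delayed repair (Mbp 1.81, Egfl8 4.01), with a sum of 220 to 693 CPM at day 5 and 833 to 4936 CPM at day 14, and the fibroblast marker sum was 16.4 to 3341 CPM at day 5 and 2444 to 22742 CPM at day 14. All 11 macrophage markers had negative differences (median −1.26, none past the threshold), and their sum ran from 375 to 12222 CPM at day 5 (median 3392) and from 1069 to 7268 CPM at day 14 (median 1888). After immediate repair fibroblast markers rose in 2 of 8, with a sum of 238 to 9222 CPM at day 5 and 1804 to 22355 CPM at day 14, and no Schwann cell marker of 11 or macrophage marker of 10 passed. Neutrophil markers summed to 10122 and 1925 CPM in day 14 replicates 3 and 5 of that group, against 12.5 to 65.9 CPM in its other libraries, and without either one Hspa1a was at −1.16 and −1.20. The part of these markers in the members' fall was not tested.

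Within groups the libraries of male and female mice differed at day 5 in the sorted fractions, a comparison made after the values had been seen. Sex coincides with replicate number, so a batch of surgery or sorting that followed the numbers cannot be told apart from it. In MAC, Fos was at 75.3 to 175 CPM in 8 males and at 214 to 457 CPM in 9 females. Fosb was at 1.47 to 12.3 CPM in males and at 13.3 to 45.6 CPM in females, and Junb at 929.6 to 1439.7 CPM against 1509 to 2163 CPM. None of the 3 overlapped, where 2.97% of genes separated with females higher. Egr1 was at 64.7 to 266 CPM in males and 196 to 987 CPM in females, overlapping, and Atf3 ran the other way, at 912 to 1092 CPM in males and 459 to 1046 CPM in females.

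The log2 differences in MAC at day 5, females minus males with repair as covariate, were 1.27 for Fos (SE 0.17, adjusted p = 7.8e-05), 2.13 for Fosb (SE 0.38, adjusted p = 6.3e-04), 1.57 for Egr1 (SE 0.26, adjusted p = 3.4e-04), 0.44 for Junb (SE 0.10, adjusted p = 0.0045) and −0.59 for Atf3 (SE 0.12, adjusted p = 0.0022). These are 5 calls of 10 members, in a contrast that called 25.1% of 8409 genes, 13.8% higher and 11.3% lower in females. Scaling by library size instead called 2150 genes higher and 486 lower (1163 and 950 with TMM). Of other immediate early genes 6 were higher and 3 lower in females of 23 (Nr4a1, an orphan nuclear receptor, 1.27, Nr4a2 1.14, Ptgs2 −1.48), of other AP-1 and ATF genes 1 higher and 2 lower of 11 (Fosl2 0.76, Mafg −0.48, Fosl1 −0.52), of MAP kinase phosphatases and feedback inhibitors 1 higher and 2 lower of 7 (Dusp2 1.23, Dusp4 −1.06, Spred1 −0.49), and of heat shock and chaperone genes 3 of 13 lower. Of macrophage markers 5 were higher and 2 lower in females of 11 (Fcgr3 0.48, Mrc1 0.75, Mertk 1.20), and their sums overlapped, at 24625 to 30780 CPM in males and 19092 to 30625 CPM in females. The dendritic cell marker sum was 1108 to 3642 CPM in males (median 2097) and 1719 to 5212 CPM in females (median 3387). The median number of genes detected was 12441.5 in males and 12845 in females. Their part in the members' differences was not tested.

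In SC at day 5 Egr1 separated the sexes as well, at 4.34 to 56.8 CPM in 8 males and 66.4 to 359.9 CPM in 8 females, as 0.958% of genes did with females higher. Its log2 difference was 2.54 (SE 0.52, adjusted p = 0.0089). Hspa1a ran from 1855 to 5557 CPM in males and from 841 to 2729 CPM in females, a difference of −1.39 (SE 0.28, adjusted p = 0.0077), and Hspa1b gave −1.41. Jund (0.51, SE 0.14, adjusted p = 0.036) was higher and Dusp1 (−0.57, SE 0.14, adjusted p = 0.022) lower in females, so 4 of 10 passed where 7.02% of 9604 genes did, 1.66% higher and 5.36% lower in females. The balance over all genes turned with scaling by library size, to 351 higher and 201 lower in females (159 and 515 with TMM). Jund did not pass without any 1 of 9 of the 16 libraries (delayed replicates 1, 2, 4, 5, 8 and 9 and immediate replicates 2, 7 and 8, adjusted p up to 0.082), and Dusp1 not without delayed replicate 4 (adjusted p = 0.052), which left 2 calls. Fos (0.63, adjusted p = 0.30) and Fosb (1.30, adjusted p = 0.19) did not pass in SC. Leaving out single libraries moved Fosb between 1.13 and 1.93, and in 1 of these 16 fits it passed (edgeR adjusted p = 0.015). Heat shock and chaperone genes were lower in females for 7 of 16 (Hsp90ab1 −0.72, Hsp90aa1 −0.66) and higher for none, and 4 of 12 dendritic cell markers were lower (Ccl22 −1.44, Fscn1 −1.24, Zbtb46 −0.69). All 11 macrophage markers had positive differences (median 1.11, none past the threshold), their sum ran from 247 to 4085 CPM in males (median 956) and from 603 to 12222 CPM in females (median 3436), and the median number of genes detected was 12081 in males and 13379.5 in females. Their part in the Egr1 and Hspa1a differences was not tested.

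**Figure D4:**
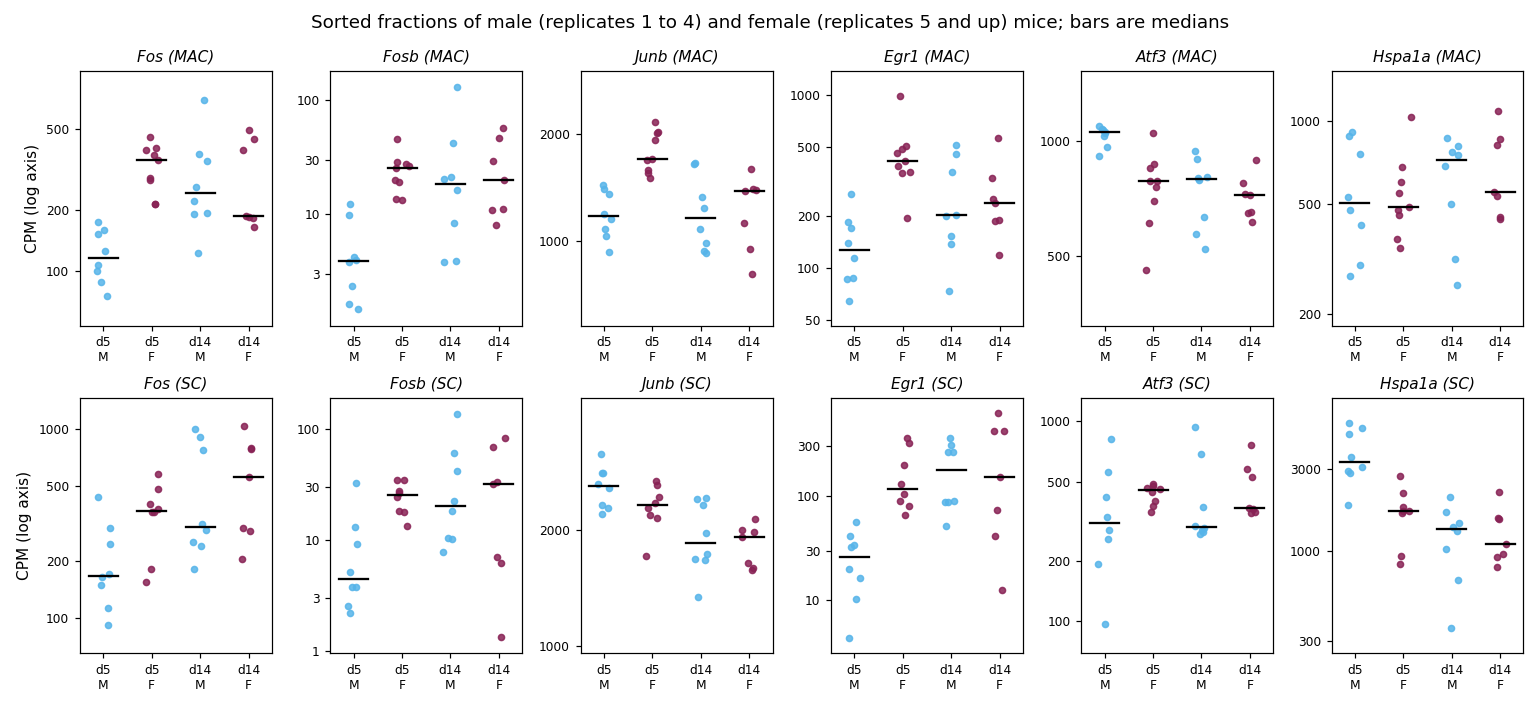
CPM on a log axis for 6 genes in MAC (top) and SC (bottom), by day and sex, with 1 point per library of both repair groups and bars at the medians. Fos and Fosb in MAC separate males from females at day 5, Egr1 does so in SC, and at day 14 the sexes overlap in all 12 panels.

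None of the 10 genes passed between sexes at day 14 in MAC (0.0466% of 8589 genes called) or SC (0.0391% of 10226), or in the stump of the day 5 mice (0.0654% of 12229). Of the genes tested there, 264, 258 and 1780 had an unadjusted p under 0.05, and DESeq2 called 0.116%, 0.0587% and 0.736%, no member among them. At day 14 Fos in MAC was at 123 to 689 CPM in males and 165 to 493.5 CPM in females. In the stump the sign leaned the other way, with 8 of the 9 tested members lower in females, from −1.01 for Fosb, and Atf3 at 0.29. Whether the sex difference changed with day was tested as an interaction, in which edgeR's quasi-likelihood test called no member, with Fos in MAC at −1.34 (adjusted p = 0.064), Egr1 in MAC at −1.55 (adjusted p = 0.083) and Hspa1a in SC at 1.51 (adjusted p = 0.080). It called 1.52% of 8949 genes in MAC and 0.165% of 10923 in SC. DESeq2 called these 3 (adjusted p = 0.041, 0.043 and 0.024), with 5.14% and 3.82% of genes.

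MAC and SC of the same bridge share the mouse, the repair, the dissociation and the library kit, which cannot be told apart here. Each gene's deviation from its group mean (log2 of TMM-scaled CPM + 1) was compared between the fractions of 31 mice. The part of dissociation in these relations was not tested. Jund had Pearson r = 0.84 (Spearman rho 0.84, permutation p = 1e-05, the smallest that the permutations can give, adjusted p = 3e-04), and both fractions lay on the same side of their group mean in 25 of 31 mice. Fosb had r = 0.80 (rho 0.81, permutation p = 3e-05, adjusted p = 4.5e-04, same side in 25 mice) and Egr1 r = 0.65 (rho 0.68, permutation p = 1.9e-04, adjusted p = 0.0019, same side in 26). Fos reached r = 0.54 (permutation p = 0.0045, adjusted p = 0.034, rho 0.48 with adjusted p = 0.083, same side in 21). Without the 2 mice farthest from the median in MAC, r was 0.80 for Jund, 0.77 for Fosb, 0.64 for Egr1 and 0.50 for Fos. Over the 8785 genes compared the median r was 0.12.

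The other members moved less together. Ier2 had r = 0.50 (permutation adjusted p = 0.056), and 0.56 with library size scaling alone, where it passed (permutation adjusted p = 0.013), and Hspa1a 0.38 (permutation adjusted p = 0.22). Dusp1 (0.09), Junb (0.07), Ier3 (0.07) and Atf3 (−0.17) did not pass either. When the means of the 2 sexes were also removed, Jund (0.84) and Fosb (0.77) still passed, each with a permutation adjusted p of 0.0012, while Fos was at 0.52, Ier2 at 0.52 and Egr1 at 0.45, each with a permutation adjusted p of 0.088, and Junb moved from 0.07 to 0.50 (permutation adjusted p = 0.094). Junb was at 0.32 with library size scaling alone and at −0.32 at day 5 and 0.54 at day 14. Within days, where adjustment was over 10 relations only, Fosb gave 0.80 at day 5 and 0.81 at day 14, and Jund 0.70 and 0.89. Egr1 gave 0.79 and 0.44 (permutation adjusted p = 0.0029 and 0.13), and Fos 0.39 and 0.70 (permutation adjusted p = 0.30 and 0.023).

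**Figure D5:**
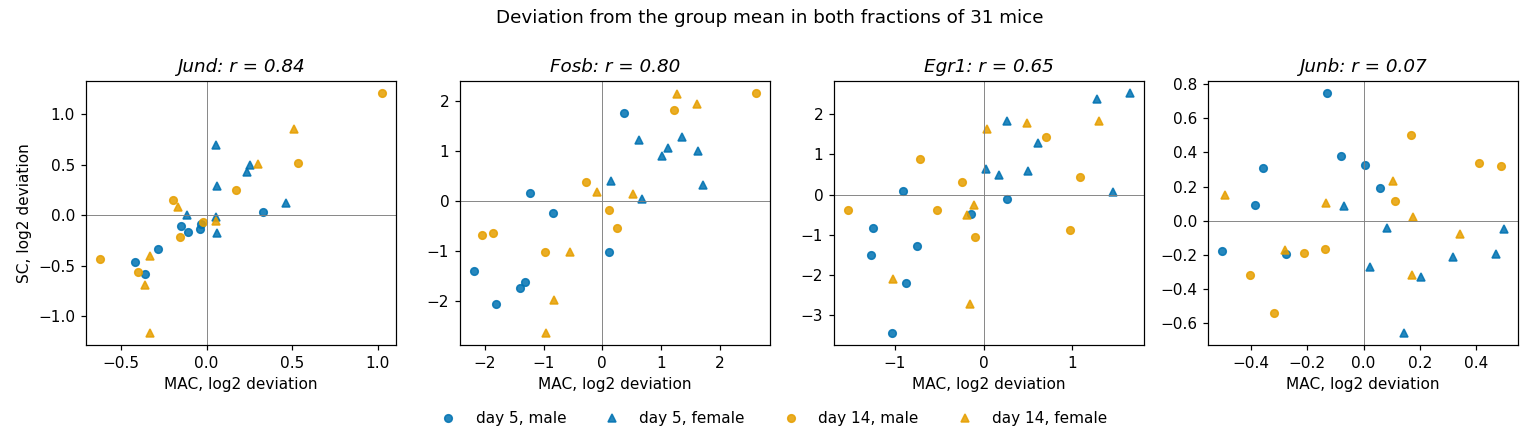
Log2 deviation from the group mean in MAC (horizontal) and SC (vertical) for 31 mice, with colour for day and symbol for sex. Jund, Fosb and Egr1 rise together across the fractions, with r of 0.84, 0.80 and 0.65, while Junb has r = 0.07, which becomes 0.50 when sex means are removed.

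With the stump, which was compared in fewer mice and at day 5 alone, no member passed. Between MAC and the stump of 16 mice r ran from −0.24 to 0.19 over the 10 genes, and between SC and the stump of 15 mice from −0.35 to 0.26, with 0 past the threshold of 0.05 after adjustment over all 30 relations computed. With sex means also removed, Fos in MAC with the stump was at 0.68 and Jund in SC with the stump at 0.76, each with a permutation adjusted p of 0.088. As a description, the median r between MAC and SC was 0.39 for other AP-1 and ATF genes, 0.33 for other immediate early genes, 0.44 for heat shock and chaperone genes, 0.18 for MAP kinase phosphatases and feedback inhibitors and 0.19 for upstream regulators.

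Within tables, the genes whose pattern was most like that of Fos were taken by Pearson r after removal of group means, as a description over libraries that share depth and preparation. In the 16 stumps these were Nr4a1 (0.96), Ier2 (0.93), Exoc6 (0.91), Btg2 (0.90) and Fosb (0.89), so 4 of the 5 are immediate early genes. In the 32 MAC libraries they were Arhgap25 (0.89), Epb4.1l1 (0.89), Fosb (0.88), Slc25a45 (0.88) and Rassf5 (0.87), and in the 31 SC libraries Rcn2 (0.78), Tob1 (0.75), Fosb (0.74), Errfi1 (0.73) and Zdhhc20 (0.73). Fosb was the one gene in all 3 sets, but with sex means also removed it was among the first 5 in MAC alone, at rank 5, and at rank 6 in SC and 7 in the stump.

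The members themselves tracked Fos in different company. In the stump Fos rose and fell with Ier2 (0.93), Fosb (0.89), Junb (0.86), Egr1 (0.82), Dusp1 (0.81) and Ier3 (0.62), less with Jund (0.47) and not with Atf3 (−0.10). In MAC the closest were Fosb (0.88), Junb (0.80), Egr1 (0.78), Jund (0.72) and Ier2 (0.63), while Dusp1 stood at 0.37, Hspa1a at 0.18, Ier3 at 0.05 and Atf3 at −0.61. In SC they were Fosb (0.74), Jund (0.64), Egr1 (0.61) and Atf3 (0.53), with Hspa1a at 0.23, Ier3 at 0.21, Ier2 at 0.20, Junb at 0.17 and Dusp1 at 0.07. With sex means also removed, Hspa1a in SC was at 0.61, Junb at 0.37, Dusp1 at 0.23 and Ier3 at 0.12, in MAC Atf3 was at −0.40, Hspa1a at 0.35 and Ier3 at 0.20, and in the stump Atf3 was at 0.04. The sets of mice overlap between tables and the values carry no test.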

How the data were processed

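RNA was sequenced on a NextSeq500 as single-end reads. Per the submitters' processing notes and methods, reads were trimmed with cutadapt 1.8, stump reads were cleared of ribosomal RNA with bowtie2, and reads were aligned to mm10 with TopHat2 2.1.1, and Cufflinks 2.2.1 and Cuffnorm are also named. The authors deposited estimated counts per gene, 1 table each for MAC, SC and DS, and the program that wrote them is not given in the sources used here. Between 0.951% and 1.18% of values were not whole, and all were rounded. No 2 libraries held identical values, and 0 columns belonged to no sample.

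Each table was tested separately with edgeR 4.0.16 (TMM scaling, quasi-likelihood F-test) in R 4.3.3, keeping a gene where 6 or more libraries reached 5 CPM. Calls are Benjamini-Hochberg adjusted p under 0.05 over all genes tested. Repair groups and days were fitted without covariates, SC against MAC with the mouse as block, and sex with repair as covariate. DESeq2 1.42.0 was an alternative, as were library size scaling, no filter, a replicate block, sex as covariate, single sexes and leaving out each library. CPM in the text scale each library total to 1000000. RPKM divides these by GENCODE M21 exon length. Stump and sorted tables were set side by side without a test. Correlations used log2(CPM + 1) on TMM-scaled library totals, with 0.5 as the alternative pseudocount, minus group means, with 100000 permutations within groups, two-sided (numpy 2.4.6, pandas 2.3.3 and scipy 1.17.1 under Python 3.11.15, figures by matplotlib 3.10.9). Adjustment was over all 30 relations of 10 genes and 3 pairs, in place of the 10 per pair first planned. Only the fits within 1 day, which leave out the stump, were adjusted over 10 relations.

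On simulated data with 200 changed genes edgeR recovered 86% of 2-fold changes for repair in MAC at day 5, 30% in SC at day 5 and 81% in DS, and 31% for day in SC after delayed repair. The members and gene lists were chosen with earlier results of these data known, and the sex comparison after the values had been seen. Named genes are the 10 members, the 3 lowest p of each list discussed, the 5 genes most like Fos per table, sorting markers, defining genes of marker lists and Hspa1b. Replicates are separate mice. Libraries are amplified without molecular identifiers, so amplified copies of a molecule cannot be told from separate molecules, and counts may overstate precision. Promoters are RefSeq sequences from GRCm38.p6.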

Additional observations from a re-analysis of the deposited data

Results flagged for a closer look

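In 100 sets of libraries (10 genes in 10 groups), 3 held a library whose gap to its nearest neighbour exceeded Dixon's limit, where chance marks about 1 set in 20. Ier2 in delayed day 5 MAC replicate 1 was at 46.0 CPM against 71.8 to 111 CPM in the other 8. Jund in delayed day 14 MAC replicate 4 was at 875 CPM against 305 to 450 CPM in the other 6. Jund in delayed day 14 SC replicate 4 was at 866 CPM against 256 to 372 CPM in the other 6. The last pair are the MAC and SC of one mouse, and without it the correlation of Jund between fractions was 0.79.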

How the results depend on the processing

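Counts of the 10 genes past the threshold kept within 1.5 times in 117 of 127 alternative fits and in 209 of 221 fits that left out 1 library. DESeq2 called 1 gene for repair in MAC at day 5 (0 by edgeR), 3 for day in SC after immediate repair (0), 2 for the sex by day interaction in MAC (0) and 1 in SC (0). For day, females only gave 0 in MAC after immediate repair (3 with all mice) and 1 after delayed repair (0, with Egr1 at −1.46, adjusted p = 0.047), and in SC after delayed repair males only gave 0 and females only 0 (3). Removal of sex means left 2 of 4 correlations between MAC and SC. The cause was not tested, except that single sexes hold fewer mice. Replicate numbers were not taken to pair mice across groups, since in no comparison did all same-numbered pairs correlate above 0.1 (7 of 8 in MAC at day 5 and 6 of 7 at day 14, where the median of 0.256 stood against −0.140 for other numbers of the same sex), and a replicate block changed the count only for day in SC after delayed repair, to 1 (Junb −0.58, adjusted p = 0.067, Hspa1a −1.46, adjusted p = 0.11). Leaving out 1 library gave 0 to 2 calls for day in SC after immediate repair (2 without day 5 replicate 5, 1 without day 5 replicate 7), 0 to 4 after delayed repair and 2 to 5 for sex in SC at day 5. In the stump contrast the log2 ratio of Fosb in MAC, 0.03, became 0.90 with joint TMM scaling, −0.17 with immediate repair only and −0.17 with delayed repair only, and that of Egr1 in SC −0.038 with immediate repair only. Over all genes, calls for day in SC after delayed repair were 806, 1514 by DESeq2 and 241 with the replicate block. Hspa1a lay below the filter in the stump, where library totals were lowest.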
